A study of Caenorhabditis elegans with 2 samples.

Results

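The genes described here encode 8 subunits of the SWI/SNF and ISWI chromatin remodelers of Caenorhabditis elegans, taken by name: swsn-1, swsn-4, snfc-5, swsn-7, swsn-9, pbrm-1, isw-1 and nurf-1, among 19973 protein-coding genes. Binding at them was measured by ChIP-seq against the eGFP-tagged zinc finger transcription factor LSY-2 in 2 biological replicates of whole L1 larvae. The larvae, of mixed sex, came from strain OP367, which carries the unc-119(tm4063) allele and the wgIs367 insertion. The study holds this 1 group, with no other genotype, stage or treatment, so the data give positions and strengths of peaks and no contrast between conditions. The labels do not name the promoter that drives the tagged gene, and neither tissues nor cell types were separated. Of the 4218 peaks that passed the authors' IDR threshold, 9 had a summit in the promoter window or body of 1 of these genes. IDR measures agreement between replicates, but by their values these 4218 are simply the strongest pooled peaks. Of them, 4179 had a summit within 200 bp in both replicates, so a place in the list does not show agreement at each peak. The promoter window covers 1000 bp before and 200 bp after each annotated transcript start. Peak signal is the authors' own value from the peak list, and no read counts accompany it, so depth is unknown.

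Chromatin remodelers use ATP to slide, eject or space nucleosomes. SWI/SNF complexes share a core built around an ATPase, here SWSN-4 with SWSN-1 and SNFC-5, and the PBAF form adds its own subunits, here SWSN-7, SWSN-9 and PBRM-1. ISWI remodelers are built around another ATPase, ISW-1, which works in the NURF complex with the large subunit NURF-1. In the worm, SWI/SNF is known for its part in asymmetric cell division and NURF for parts in vulval and germline development.

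The DNA under most of the summits is given as a description, and how alike the bound sites are was not measured. Each line below gives 101 bases of ce11 sequence, 50 on either side of a summit, read on the strand of the gene and taken from the RefSeq copy of the same assembly. Capitals mark matches on either strand to GAGAGA, to GACGCA or to ACCGTA, hexamers that earlier work on these data had picked out over all summits. Peaks of nurf-1 are numbered from its outermost start. The isw-1 line is centred on the replicate 1 summit, since the IDR list has none there.
swsn-1 (chrV:20249841-20249941, minus strand): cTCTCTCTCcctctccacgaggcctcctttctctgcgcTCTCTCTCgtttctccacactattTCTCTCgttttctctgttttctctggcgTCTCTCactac
swsn-4 (chrIV:11125335-11125435, plus strand): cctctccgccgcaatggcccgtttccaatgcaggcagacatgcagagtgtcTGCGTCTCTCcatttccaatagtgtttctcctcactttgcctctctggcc
swsn-7 (chrII:8028484-8028584, minus strand): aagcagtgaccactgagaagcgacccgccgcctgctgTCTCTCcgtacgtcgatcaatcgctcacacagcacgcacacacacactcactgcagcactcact
snfc-5 (chrIII:4404494-4404594, plus strand): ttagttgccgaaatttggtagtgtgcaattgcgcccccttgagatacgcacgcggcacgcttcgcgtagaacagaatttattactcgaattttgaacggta
nurf-1 peak 1 (chrII:14390137-14390237, plus strand): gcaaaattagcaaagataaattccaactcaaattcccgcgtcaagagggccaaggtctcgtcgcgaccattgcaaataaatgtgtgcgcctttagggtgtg
nurf-1 peak 2 (chrII:14399753-14399853, plus strand): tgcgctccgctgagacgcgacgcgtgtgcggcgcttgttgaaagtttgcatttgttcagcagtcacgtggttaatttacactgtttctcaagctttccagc
nurf-1 peak 3 (chrII:14405204-14405304, plus strand): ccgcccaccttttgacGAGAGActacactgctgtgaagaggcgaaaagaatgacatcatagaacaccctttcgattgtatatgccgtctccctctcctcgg
isw-1 (chrIII:6710172-6710272, minus strand): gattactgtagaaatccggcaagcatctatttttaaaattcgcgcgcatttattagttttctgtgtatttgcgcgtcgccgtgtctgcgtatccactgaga
The swsn-1 site holds TCTCTC, the reverse complement of GAGAGA, in separate stretches, with 6 matches when overlapping ones are counted. At swsn-4 a TGCGTC, the reverse complement of GACGCA, overlaps a TCTCTC. The swsn-7 site and peak 3 of nurf-1 hold 1 GAGAGA match each, read as TCTCTC at swsn-7. No match stands in the windows of snfc-5, isw-1 or peaks 1 and 2 of nurf-1, nor in those of swsn-9 and pbrm-1, whose sequence is not printed. In all, 4 of 10 summit windows of these genes held at least 1 of the hexamers, against 43.8% of all IDR summit windows and 13.0% of the 101 bp just upstream of protein-coding starts. For GAGAGA alone the count was 4 of 10 windows, against 28.7% of IDR windows and 8.86% of upstream windows. GACGCA was in 1 of 10, against 17.4% and 2.62%, and ACCGTA in 0 of 10, against 7.73% and 2.35%. GC content ran from 42.6% at isw-1 to 58.4% at swsn-7, against a median of 45.5% over all IDR summits. A match is a description of the letters and shows no site.

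LSY-2 peaks were found at nearly all of these remodeler genes. A promoter peak past the IDR threshold stood at 7 of the 8 genes, against 16.9% of all protein-coding genes. The gene without one was isw-1, although both replicates had a strong peak at its start. With gene bodies added the count was again 7 of 8, against 18.8% of protein-coding genes. Genes with more annotated starts have more window to be hit in. Among those with 1 start, swsn-4, swsn-7 and snfc-5 had a promoter peak and isw-1 had none, 3 of 4 against 13.8% of such genes. Among those with 2 or more starts, swsn-1, swsn-9, pbrm-1 and nurf-1 all had one, 4 of 4 against 25.2%. These shares are given as a description, because the genes were chosen with earlier results of the data known, and no test was made on them. In whole larvae, binding in more cells and more binding per cell cannot be told apart.

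The peaks were of middling strength. The strongest promoter peak of a gene had a median signal of 101 over the 7 genes (44.5 to 292), against 121 over the 3385 protein-coding genes that had such a peak. The remodeler median was 64.8 over the 4 genes left by a window of 500 bp upstream to 100 bp downstream, and 188 over the 4 left by the 2109 strongest IDR peaks. A cut to the strongest peaks raises a median by itself, and no median over all protein-coding genes is set beside either value. Taken over peaks, the median was also 101 for the 9 peaks, against 87.4 for all 4218 IDR peaks. In that ranking of 3385 genes by strongest promoter peak, pbrm-1 stood at 641, nurf-1 at 740, swsn-4 at 1709, swsn-7 at 1950, swsn-1 at 2544, snfc-5 at 2839 and swsn-9 at 3305. All 9 peaks carry the same deposited -log10 q, 4.16, the highest in the list, which does not separate them. The weakest peak inside the IDR list had a signal of 42.23 and the strongest pooled peak outside it 42.22. Among these genes the values nearest to that line were 44.5 at swsn-9 and 35.6 at an unlisted peak in nurf-1.

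**Figure D1:**
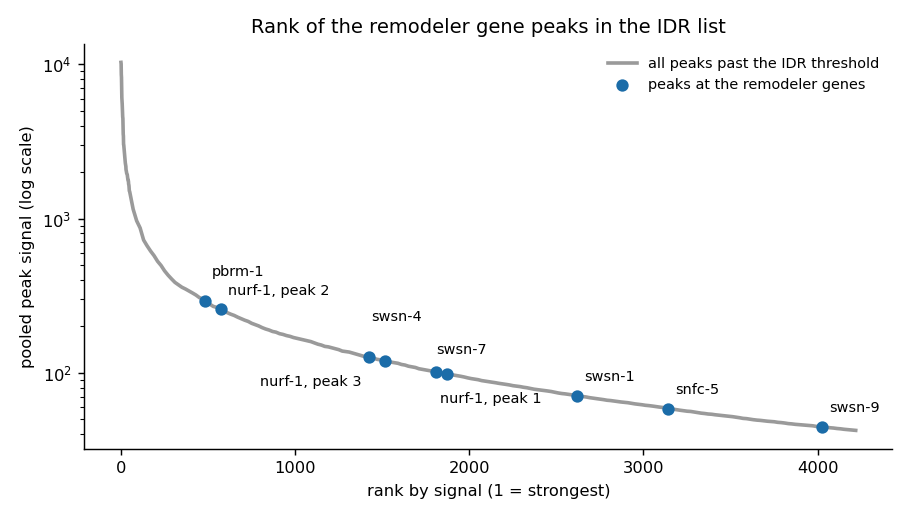
Signal of the peaks past the IDR threshold (grey line through a subset of ranks, log scale) against its rank from 1 for the strongest, with the 9 peaks at the remodeler genes as points. The points run from pbrm-1 at rank 483 to swsn-9 at rank 4027, and none lies on the steep part at the left.

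The ATPase gene of SWI/SNF, swsn-4 (WBGene00004204, chromosome IV, 11126024 to 11131162, plus strand), had its IDR peak in intergenic sequence at 11125321 to 11125469. The signal there was 63.0 in replicate 1 and 57.2 in replicate 2, a mean of 60.1 ± 4.09 (SD, n = 2), and 119 in the pooled list. The replicate summits were 10 bp apart. The summit lay 639 bp upstream of the swsn-4 start and 523 bp upstream of that of spo-11, which runs the other way. The spo-11 gene encodes the protein that makes meiotic double-strand breaks. A weaker pooled peak, below the threshold with a signal of 16.9, lay 103 bp upstream of the swsn-4 start, with 12.8 in replicate 2 and no summit within 200 bp in replicate 1.

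The core subunit gene swsn-1, of the SMARCC type (WBGene00004203, chromosome V, 20239182 to 20249488, minus strand), had an IDR peak at 20249721 to 20250060. Its signal was 40.0 in replicate 1 and 28.3 in replicate 2, a mean of 34.1 ± 8.30 (SD, n = 2), and 71.0 in the pooled list. The summit was intergenic, 403 bp upstream of the nearer of a pair of starts 6 bp apart, and no other gene's window held it. The other 3 of the 5 annotated swsn-1 starts lie 1936, 3425 and 5025 bp further in and had no IDR peak. The start at 3425 bp had a pooled summit 384 bp upstream with a signal of 10.3.

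The third core gene, snfc-5, of the SNF5 type (WBGene00011111, chromosome III, 4404786 to 4406285, plus strand), had its IDR peak at 4404374 to 4404713. The signal was 33.1 in replicate 1 and 26.6 in replicate 2, a mean of 29.8 ± 4.62 (SD, n = 2), and 58.5 in the pooled list. The intergenic summit lay between divergent genes, 242 bp upstream of snfc-5 and 108 bp from the start of R07E5.17. Across the 3 core genes, the signal was higher at swsn-4 than at swsn-1 and snfc-5 in both replicates, and swsn-1 was above snfc-5 in both replicates, although their replicate ranges overlapped.

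The PBAF genes held both the weakest and the strongest of the IDR peaks described here. The bromodomain gene swsn-9 (WBGene00007256, chromosome I, 7224656 to 7227765, plus strand) had the weakest peak of all, at 7224568 to 7224907. Its signal was 25.2 in replicate 1 and 21.4 in replicate 2, a mean of 23.3 ± 2.73 (SD, n = 2), and 44.5 in the pooled list. The summit lay inside the gene, in an intron 82 bp past the outermost start and 70 bp upstream of the next. In replicate 1 it ranked 4299, just outside the 4218 strongest, and in replicate 2 it ranked 3987, just inside.

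The polybromo gene pbrm-1 (WBGene00007042, chromosome I, 7495436 to 7503582, plus strand) had the strongest peak, at 7500308 to 7500618. The signal was 192 in replicate 1 and 111 in replicate 2, a mean of 151 ± 57.1 (SD, n = 2), and 292 in the pooled list. That summit was far inside the gene, in an intron 5035 bp past the outermost start and 846 bp upstream of the innermost of its 4 annotated starts. A non-coding RNA gene, C26C6.12, also had it in its window. At the outermost start itself the pooled signal was 19.7, below the threshold, with 5.27 in replicate 1 and 14.5 in replicate 2.

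The ARID-type gene swsn-7 (WBGene00007433, chromosome II, 8022632 to 8027763, minus strand) had its IDR peak at 8028465 to 8028591. The signal was 53.1 in replicate 1 and 59.5 in replicate 2, a mean of 56.3 ± 4.51 (SD, n = 2), and 101 in the pooled list. The summit lay 771 bp upstream of the start, in an exon of the non-coding gene C08B11.11 and in the window of another non-coding gene, C08B11.13. Its replicate summits were 99 bp apart, the widest gap of the 9 peaks, where the narrowest was 7 bp at swsn-1. A pooled peak 38 bp from the start was weaker, with a signal of 11.1. Another, inside a coding exon 1442 bp past the start, had a pooled signal of 28.3 and 22.1 in replicate 1, with no summit within 200 bp in replicate 2.

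**Figure D2:**
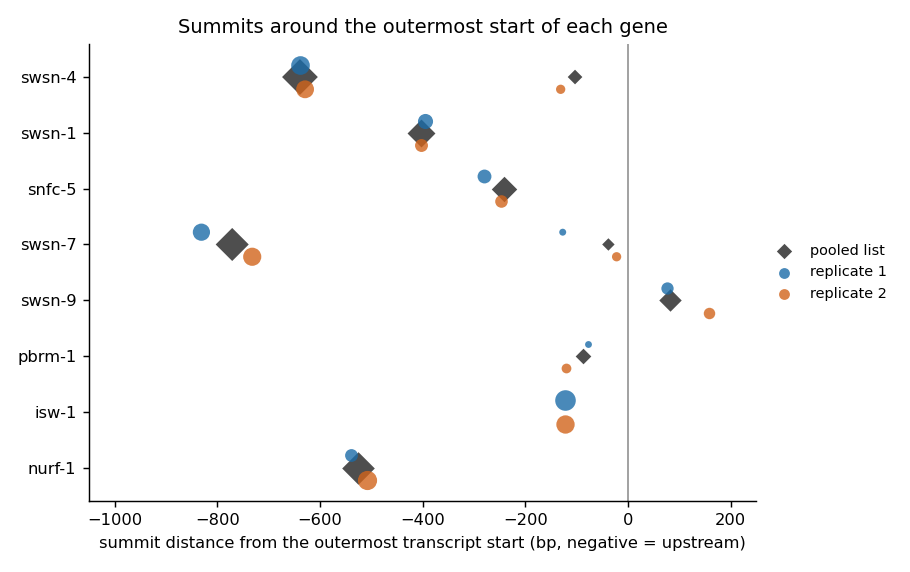
Summit distance in bp from the outermost annotated start of each gene, within 1000 bp upstream and 200 bp downstream, for the pooled list (diamonds) and each replicate (circles), with symbol area growing with signal. The isw-1 row has a circle from each replicate at about the same place and no diamond, and the pbrm-1 row holds small symbols alone.

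The ISWI ATPase gene isw-1 (WBGene00002169, chromosome III, 6703988 to 6710100, minus strand) stood apart from the others. Replicate 1 had a peak at 6710159 to 6710269 with a signal of 77.5, and replicate 2 had one at 6710075 to 6710370 with a signal of 60.7, a mean of 69.1 ± 11.9 (SD, n = 2). Both summits were intergenic, 122 and 123 bp upstream of the single isw-1 start, in no other gene's window. They ranked 1282 and 1317 among the 30000 peaks of their lists, above those of swsn-1, snfc-5, swsn-9, swsn-4 and swsn-7 in the same lists. The pooled list had no peak there. Its nearest summit lay 6338 bp away, and the nearest summit past the IDR threshold 84724 bp away.

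A missing pooled peak of this kind was rare. Among the 4218 strongest peaks of each replicate, 3378 of replicate 1 overlapped 1 of replicate 2. Of these, 23 (0.681%) overlapped no pooled peak, and the isw-1 peak was number 2 among the 23 by replicate 1 signal. Peaks past the IDR threshold whose replicate signals were each from 20% below to 25% above those at isw-1 numbered 362, and their pooled signals ran from 101 to 170.2 with a median of 137. Over all IDR peaks the pooled signal was 1.00 times the sum of the replicate signals in the median. The cause of the gap in the pooled list was not tested. Counted in the replicates themselves, a promoter summit among the 4218 strongest of both replicates stood at 7 of 8 genes, isw-1 included and swsn-9 not, against 14.9% of protein-coding genes.

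The NURF subunit gene nurf-1 (WBGene00009180, chromosome II, 14390713 to 14407911, plus strand), of the NURF301 type, had 3 IDR peaks. Among protein-coding genes, 2.02% had at least 2 and 0.486% at least 3, and no other gene of the 8 had more than 1. Of the 27 other remodeler genes described further on, 3 had at least 2, and 1 of these, let-526, a SWI/SNF gene of 16541 bp, had 4. The nurf-1 gene is also the longest of the 8, with 17199 bp. It has 23 annotated transcripts from 16 start positions, so its windows cover much of its body. Peak 1 stood upstream of the outermost starts, and peaks 2 and 3 in introns far inside.

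Peak 1 (14390017 to 14390356) was intergenic, 526 bp upstream of nurf-1 and 109 bp from the start of kbp-3, a kinetochore gene that runs the other way. Its signal was 27.7 in replicate 1 and 66.9 in replicate 2, a mean of 47.3 ± 27.7 (SD, n = 2), and 98.3 in the pooled list. As a ratio, the replicates differed here more than at any other of the 9 peaks, while the difference in signal was larger at pbrm-1. The log2 ratio of replicate 1 to replicate 2 was -1.27, where the median over 4179 IDR peaks with a summit in both was 0.34 and only 0.574% had a lower ratio. Replicate 2 was the higher at 22.3% of those peaks, and among the 9 only here and at swsn-7.

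Peak 2 (14399672 to 14399942) was the strongest of nurf-1. Its signal was 134 in replicate 1 and 124 in replicate 2, a mean of 129 ± 6.92 (SD, n = 2), and 257 in the pooled list. The summit lay 9090 bp past the outermost start and 249 bp upstream of an internal start, in a window shared with the microRNA gene cel-mir-5595. Peak 3 (14405084 to 14405423) had 78.0 in replicate 1 and 49.4 in replicate 2, a mean of 63.7 ± 20.2 (SD, n = 2), and 126 in the pooled list. It lay 14541 bp past the outermost start and 178 bp upstream of another internal start. Peak 2 was above peaks 1 and 3 in both replicates.

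Between and after these, the pooled list had 9 further nurf-1 peaks below the threshold, with signals from 11.0 to 35.6. All 9 lay past the starts at the 5' end, the first at 8245 bp. The strongest of them lay in a coding exon 367 bp upstream of an internal start. Its nearest summit had 12.3 in replicate 1 and 15.4 in replicate 2. Each replicate had a further summit within 200 bp, with 19.8 in replicate 1 and 9.89 in replicate 2. No pooled summit stood between the outermost starts and that point, although internal starts are annotated there at 1041, 1868 and 4059 bp. The other 7 genes had between 0 and 4 such weaker peaks each. Among the 27 other remodeler genes the number ran from 0 to 15, with 15 at let-526, of 16541 bp. The number over all protein-coding genes was not counted.

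**Figure D3:**
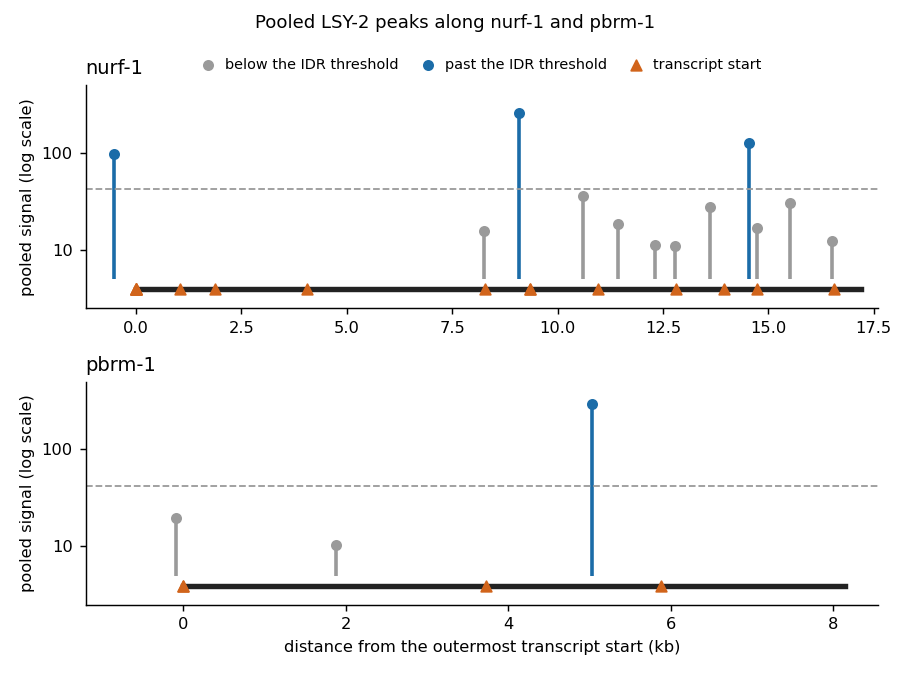
Pooled peak signal (log scale) against distance in kb from the outermost start of nurf-1 (top) and pbrm-1 (bottom), with the gene as a black bar, annotated starts as triangles and the lowest IDR signal as a dashed line. In nurf-1, IDR peaks stand at -526, 9090 and 14541 bp, and in pbrm-1 the IDR peak stands at 5035 bp.

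In order of pooled signal the 9 peaks ran pbrm-1, nurf-1 peak 2, nurf-1 peak 3, swsn-4, swsn-7, nurf-1 peak 1, swsn-1, snfc-5 and swsn-9. Replicate ranges of neighbours in this order did not overlap at 2 steps, between nurf-1 peaks 2 and 3 and between snfc-5 and swsn-9. At the other steps they overlapped. Among these, swsn-1 was above snfc-5 in both replicates, and the rest changed order between the replicates. Replicate 1 was the higher at 7 of the 9.

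**Figure D4:**
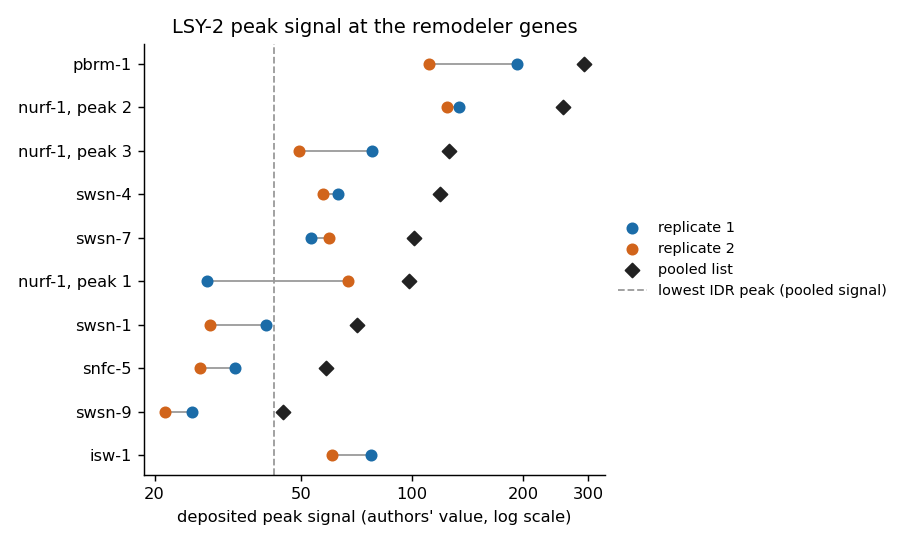
Deposited signal (log scale) of each peak in replicate 1, replicate 2 and the pooled list, in order of pooled signal. The dashed line is the lowest IDR signal, a pooled value that does not apply to the circles. Circles of isw-1 lie at 77.5 and 60.7, within the range of the other genes, with no pooled diamond, and on this scale the circles of nurf-1 peak 1 are the furthest apart.

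Many other remodeler genes also had peaks. Of 27 further genes found in the annotation, 18 had a promoter peak past the IDR threshold, against 16.9% of protein-coding genes. They were 5 of 7 other SWI/SNF subunit genes, 2 of 4 ISWI partner genes and 11 of 16 genes of the CHD, SWR1 and other SNF2-type remodelers. The median signal of the strongest promoter peak was 88.5 over the 18. The histone-binding gene lin-53 had by far the highest pooled signal, 5071, with 2919.8 in replicate 1 and 2176 in replicate 2, 244 bp upstream of its start in a window shared with nra-2, whose start is nearer.

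Some of these peaks were stronger than any at the 8 genes. The HMG-box subunit gene swsn-3 had a pooled signal of 468, with 226 in replicate 1 and 237 in replicate 2. The AAA+ ATPase gene ruvb-2 had 419, with 231 in replicate 1 and 184 in replicate 2, and the actin-related subunit gene swsn-6 had 388, with 209 in replicate 1 and 184 in replicate 2. The swsn-6 window is shared with perm-3, whose start is nearer. Below the 292 of pbrm-1 were the CHD-family gene chd-7, with 261, and the recombination gene rad-54.L, with 217. No IDR promoter peak stood at the SWI/SNF genes ham-3 and swsn-2.2 or at the ISWI partner genes rba-1 and athp-2.

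The count of 7 of 8 depends on the window, on the cut in strength and on how peaks are assigned to genes. With a window of 500 bp upstream to 100 bp downstream it was 4 of 8, without swsn-4, swsn-7, pbrm-1 and isw-1, against 13.8% of protein-coding genes. With only the 2109 strongest IDR peaks it was 4 of 8, without swsn-1, snfc-5, swsn-9 and isw-1, against 11.0%. With each peak given to the nearest protein-coding start within the window it was 5 of 8, without swsn-4, snfc-5 and isw-1, against 12.5%.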

How the data were processed

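LSY-2 ChIP-seq peak lists on ce11 were used, and ce10 lists were not used here. Peaks were called against a control alignment per replicate and on both replicates pooled, and the IDR list was derived from these, per the text listings deposited with them. No source used here names the aligner, the caller, their versions or the IDR threshold. The deposited signal (column 7 of each list) is the authors' value, whose statistic is not stated. The deposited -log10 q value is in the unit of the narrowPeak format. Each list before IDR holds 30000 peaks. By their values, the IDR peaks are the 4218 strongest pooled peaks.

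Positions, counted from 1, were matched to Ensembl release 115 genes and to the RefSeq sequence of that assembly (WBcel235, the same as ce11). The replicate signal at an IDR peak is that of the nearest replicate summit within 200 bp. With 1 group of 2 replicates there was no contrast, so no test was made. The members, the other remodeler genes and the hexamers were chosen with earlier results of these data known. Named genes were all members, up to 6 other remodeler genes with the strongest promoter peaks, and neighbours sharing a summit. The other remodeler genes without a peak that are named, and let-526, were chosen after their values were seen. Of 28 other remodeler genes listed, 1 (flt-1) was not matched and is not analysed here. Tools were numpy 2.4.6, pandas 2.3.3 and matplotlib 3.10.9 under Python 3.11.15, and the window assignment was checked on simulated data.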

Additional observations from a re-analysis of the deposited data

How the results depend on the processing

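The 8 alternatives were planned. Of the 8 genes, the number with a promoter peak was 4 with the 2109 strongest IDR peaks, against 11.0% of protein-coding genes. It was also 4 with the window of 500 bp upstream to 100 bp downstream, against 13.8%. Peaks in the promoter window or the body stood at 4 with the 2109 strongest, against 11.9%. Both counts were 7 with all pooled peaks, the window of 2000 bp upstream and any 1 bp overlap. The promoter shares of protein-coding genes were then 39.0%, 21.4% and 17.8%, and with bodies 45.5%, 22.7% and 20.1%. With the nearest protein-coding start within the window both were 5, against 12.5% and 14.5%. The body count was 5 with the narrower window, against 16.1%. With the nearest start, swsn-4 and snfc-5 dropped out. A replicate was also left out, taking the 4218 strongest peaks of the other. Both counts were then 7 without replicate 2 (swsn-9 lost, isw-1 gained) and 8 without replicate 1. The promoter and body shares were 16.8% and 18.7% without replicate 2, and 17.0% and 18.8% without replicate 1. With all pooled peaks the promoter share of protein-coding genes was 39.0%, so 7 of 8 says less there. The median signal was 188 with the 2109 strongest, a cut that raises it by itself, 64.8 with the narrower window, and 58.3 to 63.0 in the lists of 1 replicate. Over all IDR peaks the pooled signal was 1.00 times the sum of the replicate signals in the median. The levels of pooled and replicate lists are therefore not compared. The 18 of 27 other remodeler genes became 9 with the 2109 strongest, against 11.0% of protein-coding genes. Elsewhere they ran from 12 with the nearest start, against 12.5%, to 24 with all pooled peaks, against 39.0%. No paired analysis was possible because there is 1 group. Depth is unknown, so a missing peak does not show that binding is absent.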
